A study of Homo sapiens and Mus musculus with 66 samples.

Results

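The windows described here are 100 kb pieces of the hg19 genome that were called as chromatin at or near the nuclear lamina (NL) in HCT116 cells 180 min after release from a mitotic block, and that lay outside the calls of sorted asynchronous G1, S and G2 cells of the same line. They were selected on these 4 deposited lists of called regions, so that their presence at 180m G1 and their absence from G1, S and G2 describe the selection and are not results. Of the 30970 windows on chromosomes 1 to 22, X and Y, 785 met the rule, which is 2.54% of all windows, 78.5 Mb, and 12.4% of the 6344 windows in the 180m G1 list. They were then split by the 90m G1 list, which is the earlier time point of the same release. The split put 194 windows in the class called at 90 min and 591 in the class absent at 90 min.

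Lamin-B1 cTSA-seq labels proteins and DNA around lamin-B1 with biotin, pulls the labelled chromatin down on streptavidin beads and sequences it beside an input library. HCT116 is a human colorectal cancer line and K562 a human leukemia line. The 90m G1 and 180m G1 cells were treated with nocodazole, for 16 h by the labels and for longer by the Methods, shaken off, released for 90 or 180 min and sorted by FACS for a G1 DNA content. The G1, S and G2 cells were sorted from cultures that saw no nocodazole, so they are not later points of the same release, and time since mitosis and nocodazole exposure cannot be told apart between them and the released cells. Bulk HCT116 cells were not sorted, and the cell-number series used 1000000, 200000 and 50000 HCT116 cells. K562 cells were unsorted and untreated. Every HCT116 stage, HCT116 bulk and K562 had 2 replicates with an input and a pull-down library each. The 200000-cell and 50000-cell labels each hold 2 pull-down libraries and 1 input library, and the 1000000-cell labels hold 1 pull-down library and 1 input library. The G1, S, G2, bulk and K562 lists are named as consensus lists over replicates. Neither list of released cells, at 90 or 180 min, bears this name, although the Methods describe an intersection of replicate calls in general. Whether the lists were combined alike was not tested, and neither was its part in what the 180m G1 list holds beyond G1, S and G2.

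Lamina-associated domains (LADs) are long stretches of mostly AT-rich, gene-poor and repressed chromatin that contact the sheet of lamins under the nuclear envelope. The lamina is taken apart in mitosis and rebuilt around the chromosomes as cells enter G1, and contacts are formed anew in each daughter nucleus. Some LADs are found in nearly every cell type, and others differ between cell types, often around developmental and tissue-specific genes. The comparison here asks where the chromatin lies that was scored beside the rebuilt lamina at 180 min but not in cycling cells, and whether other experiments scored it.

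Short pieces of the genome give examples of the sequence of these windows. The pieces are 200 bases of the hg19 plus strand from the centre of the middle window of the second longest stretch absent at 90 min and the second longest called at 90 min, each followed by the same piece of the nearest window called at 180m G1 and in G1, S and G2. A stretch is a run of adjacent member windows. CG dinucleotides, the sites of DNA methylation, are in capitals. None of the 4 pieces overlaps an annotated exon or UTR.
Absent at 90 min, chr3:41149901-41150100, intergenic: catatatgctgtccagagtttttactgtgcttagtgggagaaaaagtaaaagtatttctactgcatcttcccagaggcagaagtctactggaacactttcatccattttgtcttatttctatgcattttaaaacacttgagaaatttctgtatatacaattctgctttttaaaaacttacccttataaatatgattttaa
Kept in G1, S and G2, chr3:36649901-36650100, intergenic, 3.6 Mb from the stretch: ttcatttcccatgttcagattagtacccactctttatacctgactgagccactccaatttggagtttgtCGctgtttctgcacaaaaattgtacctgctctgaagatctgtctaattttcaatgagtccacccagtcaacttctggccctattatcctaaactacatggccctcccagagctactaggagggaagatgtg
Called at 90 min, chr3:8049901-8050100, intron of the long noncoding RNA LMCD1-AS1: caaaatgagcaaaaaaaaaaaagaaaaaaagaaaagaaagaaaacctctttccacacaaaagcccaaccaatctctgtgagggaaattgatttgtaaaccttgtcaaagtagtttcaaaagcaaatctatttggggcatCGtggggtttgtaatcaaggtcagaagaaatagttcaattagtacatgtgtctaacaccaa
Kept in G1, S and G2, chr3:6949901-6950100, intron of GRM7, 0.4 Mb from the stretch: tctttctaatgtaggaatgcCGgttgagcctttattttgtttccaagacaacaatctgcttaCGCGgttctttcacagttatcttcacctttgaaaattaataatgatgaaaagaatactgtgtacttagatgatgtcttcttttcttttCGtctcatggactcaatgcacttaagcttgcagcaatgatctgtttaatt
The member pieces held 0 and 1 CG dinucleotides and the kept pieces 1 and 4. The GC content of a piece ran from 31% to 44% while that of the 100 kb windows around them ran from 37.9% to 43.5%. A short piece thus shows the sequence and not the level of its window. The 2 member windows are also not typical of their classes. The one absent at 90 min had 43.5% GC and the one called at 90 min 39.6%. The class medians, of 37.5% and 41.2%, stand in the reverse order.

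The 785 windows formed 225 stretches. Their median length was 200 kb, with quartiles of 100 and 500 kb, and 76 of them were a single window. Few stretches were split by the 90m G1 list: 58 stretches were called at 90 min in every window, 162 in none, and 5 in some. The 76 single windows, of which 20 were called at 90 min, cannot be split. Adjacent windows are also called together. Windows called at 180m G1 lie in 377 regions of the deposited list, of which 49 consisted of member windows alone, 138 held some, and 190 held none. The 49 whole regions had a median length of 500 kb and the other regions one of 1300 kb.

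Most stretches lay against a call of cycling cells. A border stretch has a window called in G1, S or G2 directly beside it on 1 side, a bridge stretch on both sides, and an isolated stretch on neither. There were 150 border, 28 bridge and 47 isolated stretches, so that 79.1% of stretches touched a later call. By length the picture was more even, since border stretches had a median of 200 kb, bridge stretches of 350 kb and isolated stretches of 500 kb. Border stretches held 393 member windows, bridge stretches 107 and isolated stretches 285. Isolated stretches lay a median of 1700 kb and at most 12600 kb from the nearest G1, S or G2 call, and 30 of the 47 lay more than 1 Mb away.

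The touched windows were often ones that cycling cells themselves did not share. Of the 206 sides at which a member stretch touched a G1, S or G2 window, 86 touched a window of the S list alone, 21 of G1 alone, 24 of G2 alone, 45 a window in 2 of these lists and 30 a window in all 3. The touched window was itself called at 180m G1 at 204 of the 206 sides, which follows where a stretch is the rest of a larger 180m G1 region. Counted against the asynchronous G1 list alone, 34.2% of stretches touched a call.

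Both classes of stretch were mostly border stretches. Of the 58 stretches called at 90 min throughout, 40 were border, 11 bridge and 7 isolated. Of the 162 absent at 90 min, 109 were border, 16 bridge and 37 isolated. The 12 stretches of 1 Mb or more were 7 isolated and 5 border ones, and 9 of them were absent at 90 min, 2 were called throughout and 1 in part.

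The members were found on 20 chromosomes, and chromosomes 7, 3 and X held 326 of them, or 41.5%. Chromosome 7 had 119 members, which were 33.5% of its windows in the 180m G1 list. Chromosome 3 had 118 (21.1%), chromosome 6 had 62 (20.5%) and chromosome 1 had 66 (19.4%). Among the 19 chromosomes with at least 50 windows in the 180m G1 list the median share was 8.64%, and chromosome 20, with 58 such windows, had no member. Chromosomes 17, 19 and 22 also had none, and the 180m G1 list holds no window of chromosomes 19 and 22.

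The 90 min classes lay in different parts of the chromosomes. Members called at 90 min were a median of 8.25 Mb from the nearest chromosome end and members absent at 90 min 33.8 Mb, against 33.3 Mb for all windows and 28.8 Mb for the 180m G1 windows that were kept in at least 1 of G1, S and G2. Within 10 Mb of an end lay 113 of the 194 members called at 90 min (58.2%) and 31 of the 591 others (5.25%), beside 15.6% of all windows. The 90m G1 list as a whole lies toward the ends, and the 2712 windows that were called at 90 min and in none of 180m G1, G1, S and G2 had 50.8% of their number within 10 Mb of an end, and it is this list that made the split.

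**Figure D1:**
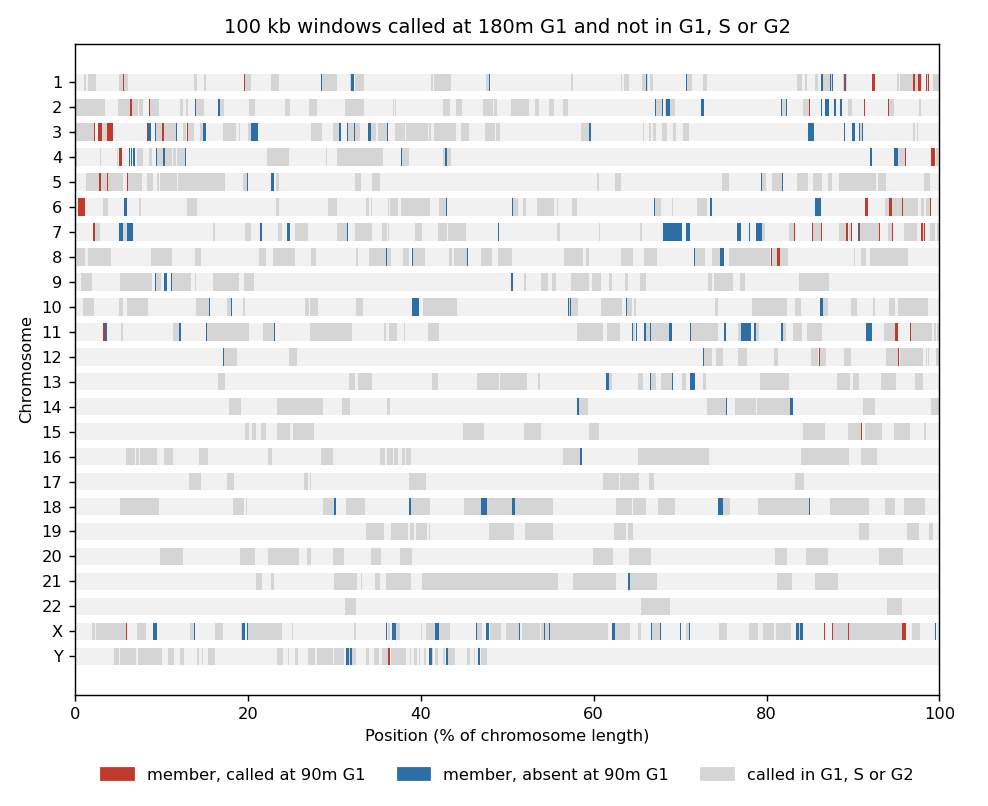
Position of the 785 member windows along each chromosome, in percent of chromosome length from the short-arm end, with members called at 90m G1 in red, members absent at 90m G1 in blue and windows called in G1, S or G2 in gray. The red windows sit mostly near the ends, at a median of 8.25 Mb from an end, and the longest blue block, of 34 windows, is on chromosome 7.

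GC content separated the classes as well. The median GC content of a member window was 38.1%, with quartiles of 36.6% and 40.1%, against 39.8% over all windows with at least 50% of their bases sequenced. Members absent at 90 min had a median of 37.5%, the same to this precision as the 37.5% of 180m G1 windows kept later. Members called at 90 min had a median of 41.2%, with quartiles of 39.0% and 43.3%, beside a median of 40.8% in windows outside all 4 lists. The 90m G1 list went with higher GC content outside the members too, since the 2712 windows called at 90 min and in none of the 4 lists had a median of 46.1%. On each of the 10 chromosomes with at least 5 members of both classes, the median GC content was higher in the class called at 90 min, at 38.6% to 42.3% against 36.3% to 38.6%. The ratio of observed to expected CG dinucleotides had a median of 0.226 in members called at 90 min, 0.181 in the others and 0.207 in all windows.

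**Figure D2:**
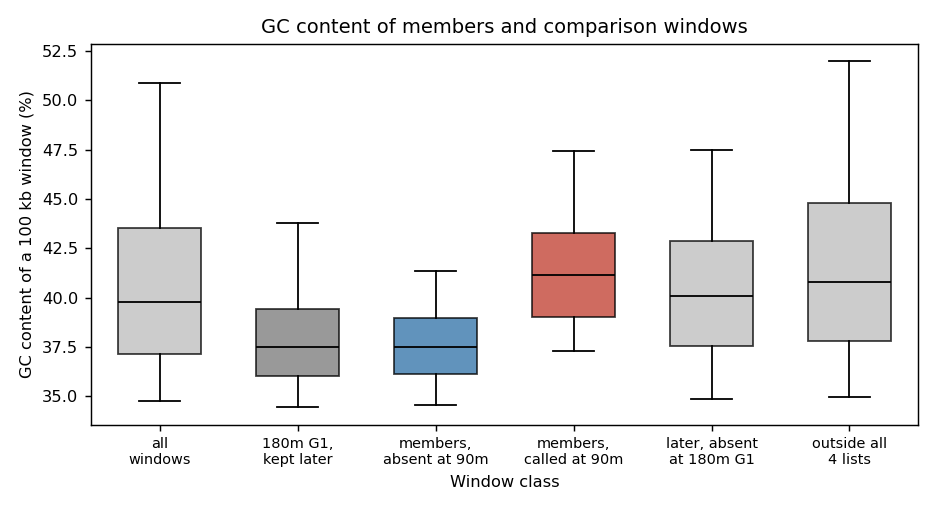
GC content of 100 kb windows by class, with the median as a line, the quartiles as a box and the 5th and 95th percentiles as whiskers. Members absent at 90m G1 have the same median as 180m G1 windows kept later, 37.5%, and members called at 90m G1 a median of 41.2%.

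The members were gene-poor, though less so than the LADs kept by cycling cells. Of 20163 annotated protein-coding genes, 277 had at least 80% of their length in member windows, or 3.53 genes per Mb (95% Poisson interval 3.13 to 3.97). The density was 1.36 per Mb in the 180m G1 windows kept later, 2.72 in G1, S or G2 windows absent at 180m G1, 8.09 outside all 4 lists and 6.51 over all windows. Members called at 90 min held 79 genes, or 4.07 per Mb (3.22 to 5.08), and members absent at 90 min 197, or 3.33 per Mb (2.88 to 3.83), and these intervals overlap. By position, border stretches held 2.93 genes per Mb, bridge stretches 4.49 and isolated stretches 4.00. No gene reached 80% in 130 of the 225 stretches. These intervals treat genes as independent, although genes of a family lie in clusters and neighbouring windows are called together.

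The olfactory receptors, the odorant receptors of the nose that are silent in most other tissues, were the gene family with the most members. Of 399 olfactory receptor genes, 41 lay in member windows (10.3%), beside 1.37% of all protein-coding genes, and 121 (30.3%) lay in 180m G1 windows kept later. All but 1 of the 41 lay in 2 isolated stretches on chromosome 11. The stretch at chr11:4400001-5000000 held 18 of them, among them OR51E1 and OR52K1, and 3 of its 6 windows were called at 90 min, 6 in HCT116 bulk, 5 with 50000 cells and none in K562. The stretch at chr11:123600001-124500000 held 22, among them OR8D1 and OR10G4, and of its 9 windows none was called at 90 min or in bulk, 7 with 1000000 cells, none with 200000 cells, 6 with 50000 cells and 3 in K562. The HCT116 lists therefore did not give these receptor clusters one state. The remaining gene was OR13H1, in a border stretch on chromosome X.

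Developmental transcription factors came as 2 clusters. Of 39 HOX genes, which set position along the body axis, none lay in 180m G1 windows kept later. In member windows lay 6 (15.4%), beside 1.37% of all protein-coding genes. These were HOXD8, HOXD9, HOXD10, HOXD11, HOXD12 and HOXD13, at the end of an isolated stretch at chr2:176200001-177000000 that lay 7500 kb from the nearest later call. None of its 8 windows was called at 90 min or in any other HCT116 list, and 5 were called in K562 by cTSA-seq. All 6 HOXD genes lie in the last 100 kb window of the stretch, so their share rests on the call of 1 window. That window was not among those 5. It holds HOXD13 (chr2:176957449-176960672, plus strand), which patterns the digits. Of 108 SOX, FOX, PAX, GATA, TBX and LHX genes, 3 lay in member windows (2.78%) and 6 (5.56%) in 180m G1 windows kept later. The 3 were the forkhead genes FOXQ1, FOXF2 and FOXC1, in 1 stretch at the tip of the short arm of chromosome 6. All 3 were called at 90 min.

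Ion channel genes lay in member windows at a share above that of all protein-coding genes, 1.37%, and transporter and zinc finger genes at shares below it. Of 139 KCN, CACN and SCN channel genes, 5 lay in member windows (3.60%), all absent at 90 min, and 13 (9.35%) in 180m G1 windows kept later. The sodium channel genes SCN1A and SCN9A, which serve neurons, lay in a bridge stretch of 9 windows at chr2:166400001-167300000, of which 3 were called with 200000 cells, none in bulk, 6 in K562 by cTSA-seq and 9 by TSA-seq. KCNK2, a background potassium channel, had all 4 of its windows called in K562 and none in another HCT116 list. KCNMB2 and KCNE5 are regulatory subunits of potassium channels, and neither had a window in another HCT116 list. Of 374 SLC transporters the members held 2 (0.535%), SLC2A9, a urate transporter with all 4 windows called at 90 min and in bulk, and SLC36A4, an amino acid transporter with both windows absent from these lists. Of 476 ZNF genes there were 3 (0.630%), ZNF619, ZNF620 and ZNF621, which neighbour each other on chromosome 3. No cadherin or protocadherin of 94 and no keratin or keratin-associated protein of 149 lay in member windows. Nor did any GABR or GRI receptor of 43, or any cytokine of 129. The same held for the 17 cell cycle and replication genes looked up, among them CCND1, CDK6 and MYC. In families of this size a share of 1.37% is few genes. The counts of 0, and those of 5 channel, 2 transporter and 3 zinc finger genes, are therefore a description only. The 180m G1 windows kept later held 13 of the cadherins and protocadherins (13.8%), 10 of the GABR and GRI receptors (23.3%) and 3 of the cytokines (2.33%). They held none of the keratins and keratin-associated proteins or of the 17 cell cycle and replication genes.

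The state of the members in other HCT116 cells depended on the list. In bulk HCT116 cells 217 of the 785 members were called, or 27.6% (95% Wilson interval 24.6 to 30.9), close to the 26.9% of all windows that the bulk list holds. The cell-number lists held fewer. They called 56 members (7.13%) with 1000000 cells, 80 (10.2%) with 200000 and 84 (10.7%) with 50000, where they hold 21.2%, 21.9% and 22.8% of all windows. The 180m G1 windows kept later were called at 94.4%, 88.2%, 91.5% and 93.6% in these 4 lists. The cells of these lists were unsorted and include G1, S and G2 cells. Lower shares of members than of kept windows therefore follow in part from the selection. In none of the 4 lists were 494 members called, and 6 were called in all 4. Intervals on shares of windows cover counting only and are too narrow, since adjacent windows are called together. All 785 members had at least 50% of their bases sequenced. This held for 28662 of all 30970 windows and for 20418 of the 22703 outside 180m G1, G1, S and G2. The shares of those 2 groups were not recomputed without the other windows.

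Members called at 90 min were more often in the bulk list than the others. Bulk held 116 of the 194 (59.8%, interval 52.8 to 66.4) and 101 of the 591 (17.1%, interval 14.3 to 20.3). The order was the same on all 10 chromosomes with at least 5 members of each class, at 25.8% to 100% against 4.88% to 35.7%. It was the same within 10 Mb of an end, at 61.9% of 113 and 22.6% of 31, and farther in, at 56.8% of 81 and 16.8% of 560. Below the median GC content of all windows the shares were 44.4% of 72 and 11.5% of 496, and at or above it they were 68.8% of 122 and 46.3% of 95. The cell-number lists did not repeat this order. With 1000000 cells 6 (3.09%) of the members called at 90 min and 50 (8.46%) of the others were called, with 200000 cells 8 (4.12%) and 72 (12.2%), and with 50000 cells 15 (7.73%) and 69 (11.7%).

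The more of the G1, S and G2 lists held a 180m G1 window, the more often other HCT116 lists held it. Bulk and cell-number cells were unsorted and include cells of these phases, so part of this order is fixed by the grouping. Windows in none of G1, S and G2, the members, were in the bulk list at 27.6%, windows in exactly 1 of them at 61.9% of 444, in 2 at 80.2% of 430 and in all 3 at 98.8% of 4685. Of the 444 windows just outside the rule 338 were in the S list only, 61 in G2 only and 45 in G1 only. With 1000000 cells the shares were 7.13%, 29.7%, 59.3% and 96.4%. Median GC content hardly followed, at 38.1%, 38.4%, 38.5% and 37.3%.

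In K562 cells most members were called, and here the classes stood the other way round. The K562 cTSA-seq list held 506 members, or 64.5% (interval 61.1 to 67.7), beside 39.6% of all windows, 86.4% of the 180m G1 windows kept later and 25.5% of the windows outside all 4 lists. The windows outside all 4 lists have a higher GC content, and their shares by GC content are given below. K562 cTSA-seq held 430 of the 591 members absent at 90 min (72.8%, interval 69.0 to 76.2) and 76 of the 194 called at 90 min (39.2%, interval 32.6 to 46.2), the latter near the share of all windows. Outside all 4 lists, too, windows called at 90 min had the lower share in K562, with 299 of 2712 called. The published K562 TSA-seq list, made by another method, held 457 members (58.2%) beside 33.9% of all windows, at 66.2% of those absent at 90 min and 34.0% of those called. Regions that both methods shared held 401 members (51.1%) beside 30.1% of all windows, and regions of cTSA-seq alone 57 (7.26%) beside 6% of all windows. Regions that both methods scored as depleted held 8 members (1.02%) beside 20.9% of all windows.

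Unlike the bulk order, the K562 order did not hold in every subset. On 7 of the 10 chromosomes with at least 5 members of each class the share in K562 cTSA-seq was lower in the class called at 90 min, and on chromosomes 6, 8 and 11 it was higher. Below the median GC content of all windows the shares were 55.6% called at 90 min and 76.4% absent, and at or above it 29.5% and 53.7%. By TSA-seq the shares in the GC-rich part were 14.8% and 13.7%. GC content thus moved with the K562 state, and its part in the difference between the classes was not tested.

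**Figure D3:**
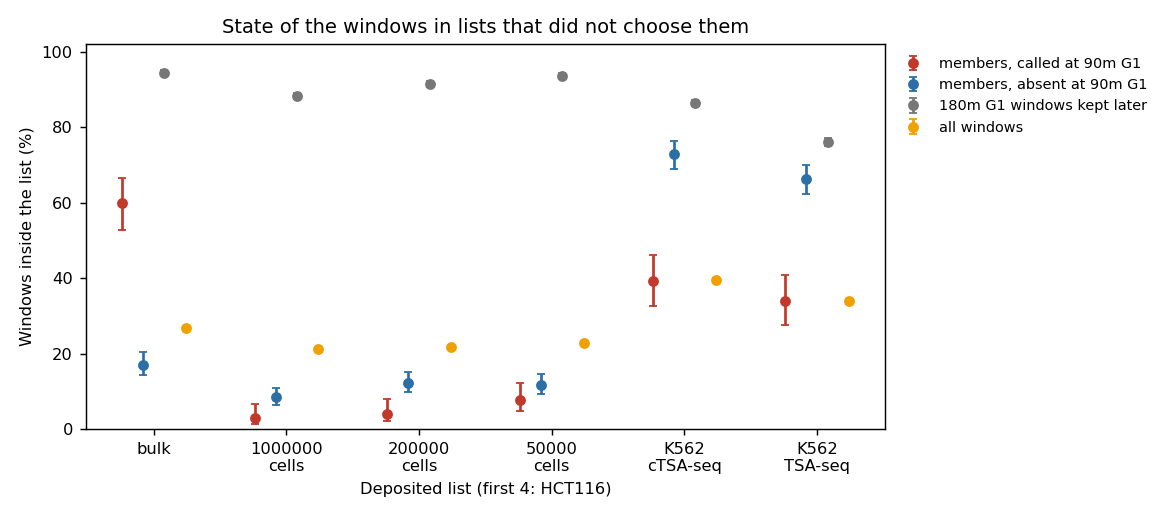
Percentage of windows inside each deposited list that did not choose the members, for members called at 90m G1 (red), members absent at 90m G1 (blue), 180m G1 windows kept later (gray) and all windows (orange); bars are 95% Wilson intervals over windows. In bulk the red point is at 59.8% and the blue one at 17.1%, and in K562 cTSA-seq they are at 39.2% and 72.8%.

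Crossing the lists gave one large group. Of the 785 members, 370 (47.1%) were absent at 90 min, absent from bulk and called in K562, and 120 (15.3%) were absent from all 3. Among members called at 90 min the largest group, of 78, was called in bulk and absent from K562, and the other 3 combinations held 38, 38 and 40. Position went with these states. The bulk list held 34.6% of windows in border stretches, 40.2% in bridges and 13.3% in isolated stretches, while K562 cTSA-seq held 65.6%, 54.2% and 66.7%.

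The edges of the stretches could be followed outward in the lists that did not define them. At an edge without a later call beside it, stretches absent at 90 min were called in K562 by cTSA-seq at 73.6% of windows in the third window inward, 63.4% in the last window inside, 47.5% in the first outside and 39.3% in the third outside, over 87, 183, 183 and 183 windows. Farther out the cTSA-seq share rose again, to 52.2% of 182 windows centred 950 kb from the edge. By K562 TSA-seq the step was smaller, from 57.4% in the last window inside to 51.9% in the first outside. In bulk the last window inside was called at 24.0% and the first outside at 10.9%. At an edge that touched a G1, S or G2 call, K562 cTSA-seq changed little across it, with 68.8% in the last member window and 78.7% in the first window beyond, over 141 edges. Bulk went from 34.0% to 58.9% there, and stood at 12.2% of 49 windows 3 windows inside the stretch and 77.3% 3 windows beyond the edge. Such an edge is a step into a G1, S or G2 call, and bulk cells include these phases. Some rise in bulk is therefore built into the definition. For stretches called at 90 min throughout, bulk was already at 82.3% of 62 in the last member window beside a later call and at 91.9% in the first window beyond, and 90.7% of the first 54 windows outside their free edges were also in the 90m G1 list, so their free edges were those of the 180m G1 list within a wider 90m G1 call.

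**Figure D4:**
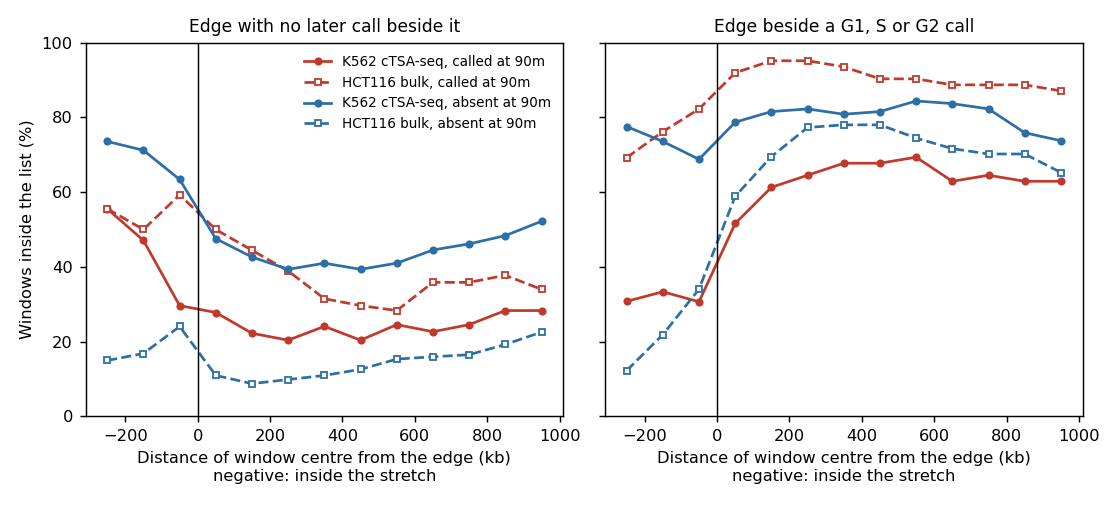
Percentage of windows in the K562 cTSA-seq list (filled points, solid lines) and the HCT116 bulk list (open squares, dashed lines) against distance from the edge of a member stretch in kb, for edges with no later call beside them (left) and edges beside a G1, S or G2 call (right); red is for stretches called at 90m G1 throughout and blue for stretches absent there. At free edges the blue K562 line goes from 63.4% in the last window inside to 47.5% in the first outside, and at touching edges the blue bulk line goes from 34.0% to 58.9%.

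The longest stretch, at chr7:108300001-111700000, was isolated, 34 windows long and absent at 90 min. It held IMMP2L (chr7:110302700-111202573, minus strand), the longest gene in any member stretch, which encodes a peptidase subunit of the inner mitochondrial membrane, and LRRN3, a leucine-rich repeat protein of neurons whose gene is nested within IMMP2L. None of the 34 windows was called in bulk or in the 1000000, 200000 and 50000 cell lists. In K562 29 were called by cTSA-seq and 25 by TSA-seq, but of the 10 windows of IMMP2L itself 5 were called by each method. Its GC content was 36.5%, and the nearest later call was 3900 kb away.

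The next 2 stretches absent at 90 min differed from each other. The border stretch of 17 windows at chr3:40300001-42000000 held ULK4, a kinase-like gene, ZNF621 and CTNNB1 (chr3:41236232-41301587, plus strand), which encodes beta-catenin of cell junctions and Wnt signalling. Of its windows 11 were called in bulk, 5 with 1000000 cells and none with 200000 or 50000 cells. K562 cTSA-seq called 12 and TSA-seq none, so all 12 lay in regions that cTSA-seq alone called. Both windows of CTNNB1 were called in bulk and in K562 cTSA-seq. The border stretch of 16 windows at chr11:104000001-105600000 held CARD18 and CARD16, which encode CARD-only regulators of caspases, and the inflammatory caspase gene CASP5. No other HCT116 list called any of its windows, and both K562 methods called all 16.

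MECOM lay in an isolated stretch far from any later call. The 15 windows at chr3:167900001-169400000 held MECOM (chr3:168801287-169381563, minus strand), a zinc finger transcription factor gene of blood stem cells, and lay 10400 kb from the nearest G1, S or G2 call. K562 cTSA-seq called 15 and TSA-seq 14 of them, including 6 and 5 of the 6 windows of MECOM, and no other HCT116 list called any.

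The 5 longest stretches called at 90 min were taken with ties in chromosome order, since 3 stretches of 7 windows, on chromosomes 4, 6 and X, shared the fifth place, and 3 of the 5 held no protein-coding gene. The isolated stretch of 15 windows at chr6:500001-2000000 held EXOC2, a subunit of the exocyst that tethers vesicles, with FOXQ1, FOXF2 and FOXC1 (chr6:1610150-1614132, plus strand), of which FOXC1 acts in eye development. No window of it was called in bulk or at any cell number, 5 were called in K562 by cTSA-seq and none by TSA-seq, its GC content was 43.4%, and a later call lay 100 kb away. The isolated stretch of 8 windows at chr1:229900001-230700000 held GALNT2, an enzyme that starts O-linked glycosylation, and PGBD5, derived from a transposase. Bulk called all 8 of its windows and K562 none, at a GC content of 44.6%. The 3 without genes were 12 border windows at chr3:7400001-8600000, of which 4 were called in bulk and 12 in K562, 8 border windows at chr3:5300001-6100000, with 3 and 3, and 7 isolated windows at chr4:189400001-190100000, with none in bulk and 7 in K562. None of these 5 stretches had a window in the cell-number lists.

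**Figure D5:**
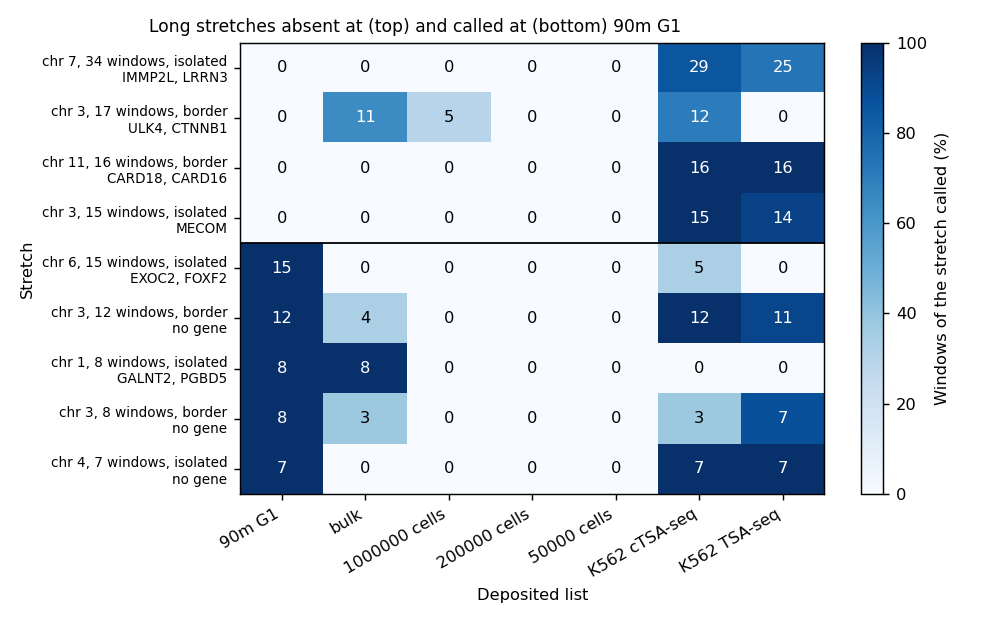
The 4 longest stretches absent at 90m G1 (top) and the 5 longest called there throughout (bottom) against 7 deposited lists. Color gives the percentage of the stretch's windows inside the list and the printed number the count of windows; the bulk and cell-number columns are HCT116, and the IMMP2L stretch of 34 windows has 0 in all 4 of them and 29 in K562 cTSA-seq.

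Other genes among the 10 longest in member windows were CADPS2, TRPC6, KCNMB2 and an unnamed gene that overlaps it, ENSG00000275163. All were absent at 90 min. CADPS2, which acts in the release of dense-core vesicles, had its 7 windows called by both K562 methods and in no other HCT116 list. TRPC6, a cation channel gene, had its 5 windows called by both K562 methods and in no other HCT116 list.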

How the data were processed

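Lamin-B1 cTSA-seq lists of HCT116 and K562 cells were used; data from mouse tissue, hTERT-RPE1 cells and SLAM-seq were left out. Bowtie2 2.3.2 was used by the authors for alignment to hg19, followed by removal of duplicates and read counting in windows (bedtools 2.26.0). The log2(pull-down/input) was turned into a z-score, a Hidden Markov Model with 3 states gave the regions, and calls of replicates were intersected. The deposited lists used here hold starts and ends of called regions on a grid of 100 kb, with no signal or read count, so depth and the spread between replicates could not be taken from them and no test was made. Libraries of single replicates were not analysed here. Of each list every region on chromosomes 1 to 22, X and Y was placed on windows, and a window counted as called when it lay inside a region. GC content used windows with at least 50% of their bases sequenced. Genes were those of GENCODE release 44 on hg19 with at least 80% of their length inside member windows.

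The members, lists and rules were chosen with earlier results of these data known. Genes named are the 3 longest of each of the 5 longest stretches of both classes, the 10 longest genes and members of gene families listed for this purpose; OR51E1, OR52K1, OR8D1 and OR10G4 stand as examples of their clusters. Some genes, stretches and sequences that the rules select are not reported here. FOXQ1 belongs to the listed families. Alternatives were other definitions of members, touching and gene inclusion, stretches of at least 200 kb, autosomes, other lists, and leaving out each chromosome. Intervals are Wilson (shares), Poisson (gene densities) and exact binomial (medians), at 95%, and cover counting only. Calculations used Python 3.11.15, numpy 2.4.6, pandas 2.3.3 and scipy 1.17.1, figures matplotlib 3.10.9. Stretches and positions were tested on simulated lists with planted ones.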

Additional observations from a re-analysis of the deposited data

How the results depend on the processing

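No paired analysis was possible because each group has a single region list, without separate lists for its replicates, and no test was made. For the same reason no replicate could be left out, and each chromosome was left out in turn. The share of members called at 90 min then ran from 22.2% to 25.7%, of stretches touching a later call from 78.2% to 81.0%, of members called in bulk from 26.6% to 28.8% and in K562 from 62.4% to 66.8%, and the median GC content from 38.0% to 38.2%. Gene density ran from 2.94 to 3.80 per Mb, and the lowest value, without chromosome 11, was below the 95% interval. Of 39 other alternatives, 22 stayed within the 95% interval or, for counts, within 1.5 times.

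Values moved with the definitions and with the list compared. Outside the asynchronous G1 list alone there were 1403 members. With bulk windows also removed, 13.7% were called at 90 min. Stretches within 500 kb of a later call made up 84%, and those touching a call of asynchronous G1 alone 34.2%. Requiring only 50% of a gene gave 4.01 per Mb. The share called in bulk was 20.2% without members that touch a later call, and was 7.13% in the 1000000-cell, 10.2% in the 200000-cell and 10.7% in the 50000-cell list. The share called in K562 was 58.2% by TSA-seq and 51.1% by both methods. Members called at 90 min alone gave 59.8% in bulk, 39.2% in K562 and a median GC content of 41.2%, and those absent gave 17.1%, 72.8% and 37.5%. The 200000-cell list, the list of both methods, the split by 90 min and the removal of the longest stretch were added after the data were examined. The causes were not tested. Region lists without signal cannot show whether a member lay just under the limit of a G1, S or G2 call.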

Other observations

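The genes in this paragraph were chosen after their values were seen. The chromosome 11 stretch with CARD16 and CARD18 also held the caspase genes CASP1, CASP4 and CASP12, so that 6 genes of inflammatory caspases and their regulators lay in one stretch called by both K562 methods and in no other HCT116 list. SATB1, which encodes a chromatin organiser that binds AT-rich DNA, lay in a border stretch of 1 window on chromosome 3. It was not called at 90 min or in another HCT116 list, and K562 cTSA-seq called both windows that the gene spans. A stretch of 10 windows at chr2:211100001-212100000 with CPS1, the first enzyme of the urea cycle, was isolated, and both K562 methods called all 10 windows.

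On chromosome X, the border stretch of 7 windows at chrX:148500001-149200000 held 14 protein-coding gene entries, among them IDS, a lysosomal enzyme gene, and MAGEA8 and MAGEA11 of the cancer-testis antigens. All 7 windows were called at 90 min, 6 in bulk and none in K562. It holds near-identical copies such as MAGEA9 and MAGEA9B, to which short reads cannot be assigned with certainty. Of the 8 members that both K562 methods scored as depleted, 3 lay side by side at chr9:71200001-71500000, and bulk called all 3.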
